A study of Saccharomyces cerevisiae with 10 samples.

Results

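The TIR, DAN and PAU set described here comprises 8 yeast genes that encode cell wall mannoproteins: TIR1, TIR2, TIR3, TIR4, DAN1, DAN4, PAU2 and PAU7. They were chosen by name, as the probe sets whose gene name in the authors' deposited annotation is that of a member. Each of the 8 was read by 1 probe set, so the set holds 8 of 5654 named genes and 8 of 5811 Saccharomyces cerevisiae probe sets. They are known as anaerobic genes, while the sample labels describe an aerobic batch and give no oxygen reading for the feed. Of the 8 members, 7 lay above background on all 10 arrays, and DAN1 lay above it on 0 of 10.

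Mannoproteins form the outer layer of the yeast cell wall, where many are held through a remnant of a lipid anchor. Yeast is known to exchange part of this coat when oxygen runs out: the genes of the TIR, DAN and PAU families are switched on, and CWP1 and CWP2, which encode major wall mannoproteins of aerated cells, are turned down. In the presence of oxygen, heme and sterol synthesis keep the TIR and DAN genes off through the repressors Rox1 and Mot3 with the corepressor Tup1-Cyc8, and Upc2, which responds to low sterol, activates them. TIR1 and TIR2 are also known as cold-shock genes, and DAN1 takes part in sterol uptake without oxygen. PAU genes form a large family of near-identical copies, mostly close to chromosome ends.

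Cells were S. cerevisiae strain TMB3500, grown aerobically at 30 °C and pH 5 in a batch on 20 g/L glucose and then fed. One feed was spruce hydrolysate that had not been detoxified, a liquor of wood sugars with the by-products of their release, and the other held the sugars glucose, mannose and xylose alone at like concentrations. Over 16 h the rate went up from 0.04 to 0.1 L/h, and 1 L was added to 0.7 L of culture. The 10 arrays were of hydrolysate feed at 9 h and 18 h, sugar feed at 9 h and 18 h and the start of the feed (0 h), with 2 biological replicates in each of these 5 groups. All groups shared the strain and the batch phase, and the 18 h samples fell after the 16 h ramp. RNA was measured on Affymetrix 3′ expression arrays, which read fluorescence from biotin-marked copies of message 3′ ends. Levels are log2 intensities as deposited, normalized by RMA (robust multi-array averaging), in which 1 unit is a 2-fold difference, and n = 2 arrays for each group. In a culture, fewer cells that express a gene and less of its RNA per cell cannot be told apart.

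The arrays also carry probe sets for Schizosaccharomyces pombe, and the level that 95% of these stayed under was taken as background, between 4.67 and 4.9 by array. Replicate arrays correlated across genes at 0.971 to 0.996. The start replicates stood furthest apart for the set: TIR2 and TIR4 differed by more than 2-fold between them, and the median of replicate 1 minus replicate 2 over the members was -0.55, against 0.03 over all genes. In the other 4 groups 0 members were 2-fold apart. The gap between 3′ and 5′ probe sets of 8 control genes, which grows when RNA is shorter or copied less fully, differed by group. It averaged 0.96 ± 0.05 at 9 h and 1.23 ± 0.05 at 18 h of hydrolysate feed, against 0.67 ± 0.00 at 9 h and 0.60 ± 0.01 at 18 h of sugar feed, and 0.83 ± 0.07 at the start (SD, n = 2 each).

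Positions are those of the authors' deposited table on the S. cerevisiae genome, and all 8 members had the same start and end in RefSeq's R64 assembly. TIR4 (YOR009W) lies on chromosome XV at 344335-345798, plus strand, and TIR2 (YOR010C) follows it at 346195-346950, minus strand. Their 3′ ends face each other across 396 bases, and AUS1, a sterol importer gene, comes next beyond TIR2. DAN1 (YJR150C, 708811-709707) and DAN4 (YJR151C, 712255-715740) are neighbours on the minus strand of chromosome X. TIR1 (YER011W, 175248-176012) and PAU2 (YEL049W, 63728-64090) are on the plus strand of chromosome V. TIR3 (YIL011W) is on chromosome IX at 333727-334536, plus strand, and PAU7 (YAR020C) on chromosome I at 176856-177023, minus strand. The PAU2 and PAU7 probe sets are of the kind that near-identical copies can share, so their signal may come from several PAU genes. The other 6 probe sets are of the kind taken to read 1 gene.

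The 4 TIR genes differed in course. TIR1 read 7.90 and 8.51 at the start, and then 7.65 and 7.68 at 9 h and 7.53 and 7.16 at 18 h of hydrolysate feed, against 8.01 and 8.03 at 9 h and 7.59 and 7.66 at 18 h of sugar feed. Its group means stayed within 1 log2 unit of each other, and its start arrays overlapped those of the sugar feed at 9 h. TIR2 read 8.04 and 9.26 at the start, then 7.97 and 7.86 at 9 h and 7.40 and 7.58 at 18 h in hydrolysate, against 8.38 and 8.31 at 9 h and 9.41 and 9.29 at 18 h in sugar. Both late sugar arrays of TIR2 lay above every other array, and both late hydrolysate arrays below every other.

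TIR3 read 7.10 and 8.06 at the start, then 7.94 and 8.66 at 9 h and 6.08 and 6.29 at 18 h in hydrolysate, against 9.13 and 8.92 at 9 h and 6.95 and 6.97 at 18 h in sugar. Among members above background it was the one with its highest group at 9 h of sugar feed, and in both feeds it was lower at 18 h than at 9 h on every array. TIR4 read 5.998 and 7.515 at the start, then 7.23 and 7.10 at 9 h and 7.66 and 7.22 at 18 h in hydrolysate, against 7.77 and 7.62 at 9 h and 9.47 and 9.40 at 18 h in sugar. The late sugar arrays stood apart, while each pair of neighbours in the order of the other 4 groups of TIR4 overlapped.

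DAN1 read between 3.70 and 4.31 on the 10 arrays, below background on each, and no fold is given for it. Its low end, 3.70, and a value of 4.18 were the 2 replicates of hydrolysate feed at 18 h. DAN4 read 7.49 and 7.98 at the start, then 8.18 and 8.27 at 9 h and 7.93 and 8.10 at 18 h in hydrolysate, against 8.72 and 8.83 at 9 h and 9.52 and 9.49 at 18 h in sugar. Its groups followed the order sugar 18 h, sugar 9 h, hydrolysate 9 h, hydrolysate 18 h and start, and the arrays of the last pair overlapped.

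PAU2 read 9.89 and 9.69 at the start, then 8.45 and 9.18 at 9 h and 9.40 and 9.22 at 18 h in hydrolysate, against 9.31 and 9.56 at 9 h and 11.12 and 11.22 at 18 h in sugar. PAU7 read 6.12 and 5.93 at the start, then 6.27 and 6.72 at 9 h and 6.38 and 6.54 at 18 h in hydrolysate, against 7.05 and 7.17 at 9 h and 8.47 and 8.42 at 18 h in sugar. In both genes the late sugar arrays were above all others; PAU2 was lowest in hydrolysate at 9 h and PAU7 lowest at the start. Thus 5 members, TIR2, TIR4, DAN4, PAU2 and PAU7, had their highest group at 18 h of sugar feed. The share of all genes with this pattern was not counted, so the 5 have no background to be set against. By the limma test described below, 36.8% of all genes were called higher at 18 h of sugar feed than at the start. Against 9 h of sugar feed the share was 31.9%.

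**Figure D1:**
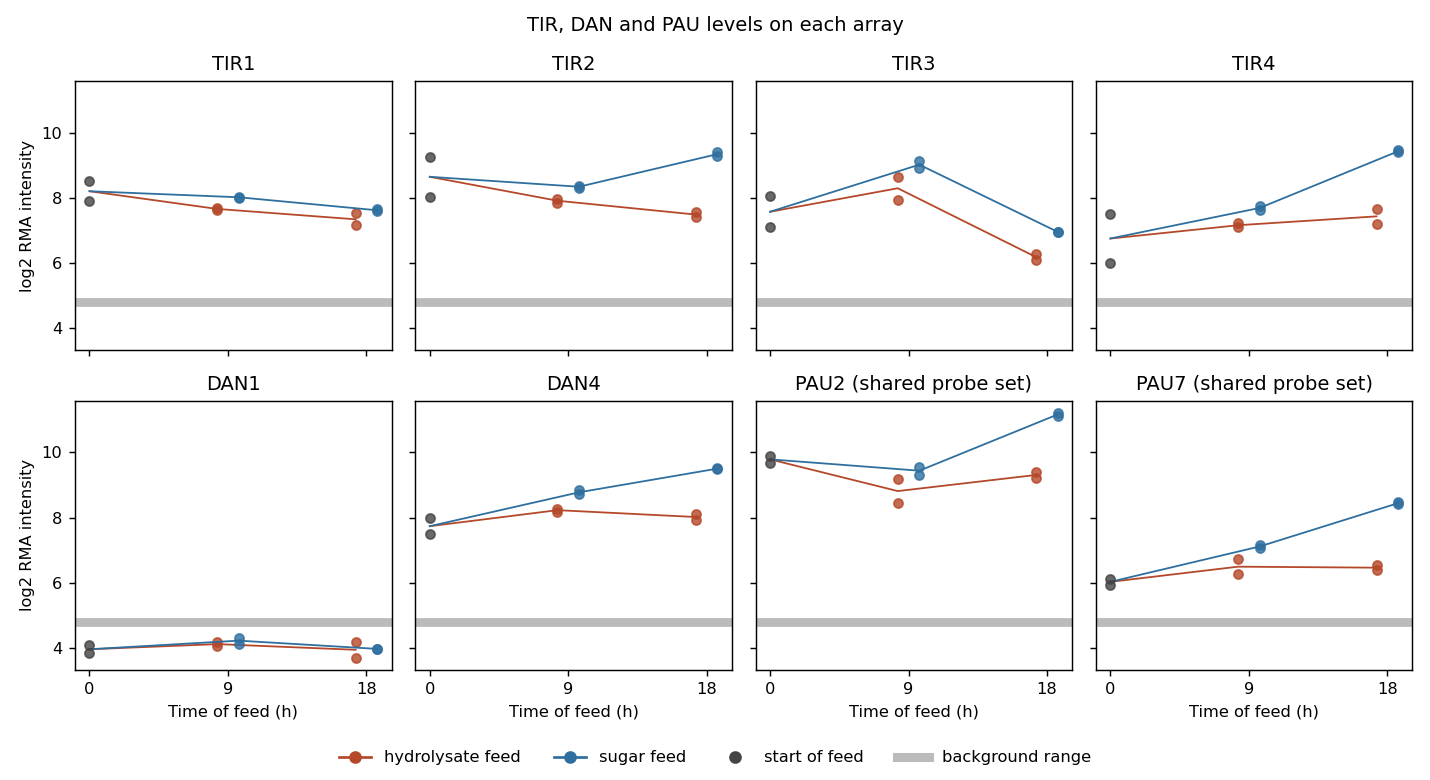
Log2 RMA intensity of each member against time of feed in hours, with a point for each array, lines through the group means of the hydrolysate and sugar feeds, the start in dark grey and the range of background over arrays as a grey band. The late sugar points lie above all others for TIR2, TIR4, DAN4, PAU2 and PAU7, TIR3 is low in both feeds at 18 h, and DAN1 stays under the band.

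At 9 h the hydrolysate feed gave lower mean levels than the sugar feed for all 7 measurable members, by 0.36 for TIR1 up to 0.72 for TIR3 on the log2 scale, but no member passed the test. DAN4 was at 8.18 and 8.27 in hydrolysate against 8.72 and 8.83 in sugar (log2 difference -0.55, SE 0.17), and PAU7 at 6.27 and 6.72 against 7.05 and 7.17 (-0.62, SE 0.17). The hydrolysate and sugar arrays did not overlap in any of these 7, and hydrolysate was the lower; 32% of all genes had such groups in that direction. Tested with limma across all genes, in a single fit of the 10 arrays with Benjamini-Hochberg adjustment and a call under 0.05, 0 of 8 members were called, where 9.67% of all genes were (5.77% higher and 3.91% lower). That background rested on single arrays: the 547 genes called became 30 and 39 without sugar 9 h replicate 2 or 1, 48 without hydrolysate 9 h replicate 1, 137 without either sugar 18 h array, 293 without either hydrolysate 18 h array and 1550 without hydrolysate 9 h replicate 2. The adjusted p was 0.0545 for PAU7, 0.0741 for DAN4, 0.101 for PAU2 and 0.147 or more for the others, and 3 of 8 members, all lower, had an unadjusted p under 0.05, which 34.4% of all genes had in either direction and 15.9% as lower. The median of the 8 differences was -0.54, against 0.03 over all genes. Without hydrolysate 9 h replicate 2, PAU2 (-0.99, adjusted p = 0.00789) and PAU7 (-0.85, adjusted p = 0.0089) were called, and without either start replicate DAN4 was (-0.55, adjusted p = 0.0332 both times).

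At 18 h the difference between the feeds was large for 5 members, all lower with hydrolysate: TIR2, TIR4, DAN4, PAU2 and PAU7. The wall protein genes TIR4 and TIR2, which lie side by side, were 3.99-fold and 3.62-fold lower in hydrolysate than in sugar (log2 differences -1.998, SE 0.40, and -1.86, SE 0.32). PAU7 was 3.95-fold lower (-1.98, SE 0.17), PAU2 3.63-fold lower (-1.86, SE 0.23) and DAN4 2.8-fold lower (-1.49, SE 0.17). In each of the 5, both hydrolysate arrays lay more than 1 log2 unit below both sugar arrays. TIR3, at 6.08 and 6.29 in hydrolysate against 6.95 and 6.97 in sugar, differed by -0.78 (SE 0.32) and TIR1, at 7.53 and 7.16 against 7.59 and 7.66, by -0.28 (SE 0.21, 95% interval -0.75 to 0.19). The arrays of these last 2 did not overlap either, and hydrolysate was again the lower.

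By limma's test across all genes, 5 of 8 members were called at 18 h, 5 lower and 0 higher, where 61.9% of all genes were called, 30.8% lower and 31.2% higher. Adjusted p-values were 8.84e-05 for PAU7, 0.000226 for DAN4, 0.000279 for PAU2, 0.00132 for TIR2 and 0.00275 for TIR4. They were 0.0617 for TIR3 and 0.265 for TIR1. The median of the 8 differences was -1.67, against 0.01 over all genes; groups without overlap, hydrolysate lower, were found for 7 of 8 members and 43.8% of all genes. TIR3 crossed the threshold without either start replicate (-0.78, adjusted p = 0.0197) or either hydrolysate 9 h replicate (-0.78, adjusted p = 0.0426), as it did with only the arrays compared (-0.78, adjusted p = 0.00294), on quantile normalization again (-1.11, adjusted p = 0.021) and with spike-in centring (-1.003, adjusted p = 0.0115). The 5 called members stayed called without any one of the 10 arrays. The 3′ to 5′ gap of control genes moved with the feed at this time (1.27 and 1.196 in hydrolysate, 0.60 and 0.59 in sugar), and its part in these differences was not tested. The authors' deposited table names its adjustment global and does not describe its test. Small log2 differences have a t score of 0 there, as for TIR3 at -0.78, unlike in the fit used here. Its calls are therefore not like for like with those above. By the authors' test PAU7 was the 1 member called at this time (log2 difference -1.98, adjusted p = 0.0103). In that test the adjusted p was 0.0867 for PAU2, 0.266 for DAN4, 0.321 for TIR2 and 0.404 for TIR4.

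Whether the feed difference itself changed between the times was tested as the difference at 18 h minus the difference at 9 h. Of the 8 members, 4 were called and all 4 went further below the sugar feed with time, where 27.4% of all genes were called, 13.1% lower and 14.3% higher. The 1548 genes called became 654 without sugar 9 h replicate 2, 683 and 692 without sugar 18 h replicate 1 or 2, 892 and 1011 without hydrolysate 18 h replicate 1 or 2, and at most 1889, without hydrolysate 9 h replicate 1. PAU7 changed by -1.36 (SE 0.24, adjusted p = 0.00732), with feed differences of -1.98 at 18 h and -0.62 at 9 h. For PAU2 the change was -1.23 (SE 0.32, adjusted p = 0.0255), for DAN4 -0.94 (SE 0.24, adjusted p = 0.0246) and for TIR2 -1.43 (SE 0.46, adjusted p = 0.0486). TIR4 changed by about as much, -1.47, with a wider error (SE 0.57, adjusted p = 0.0879), and was not called; it was with only the arrays compared (-1.47, adjusted p = 0.00619) or spike-in centring (-1.70, adjusted p = 0.0171). TIR3 had a change of -0.05 (95% interval -1.08 to 0.98) and TIR1 one of 0.08 (95% interval -0.58 to 0.75), which was negative with quantile normalization (-0.11) or spike-in centring (-0.15).

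Only the call of PAU7 in this test held without each of the 10 arrays. TIR2 lost its call without any of the 8 feed arrays (change -1.34 to -1.52, adjusted p up to 0.132). DAN4 lost it without hydrolysate 9 h replicate 2 (-0.90), hydrolysate 18 h replicate 1 (-0.85) or any of the 4 sugar arrays (-0.88 to -0.997), with an adjusted p up to 0.082. PAU2 lost it without either hydrolysate 18 h array (-1.33 and -1.14) or any of the 4 sugar arrays (-1.11 to -1.36), with an adjusted p up to 0.0854. TIR4 was called without either start replicate (-1.47, adjusted p = 0.00619).

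**Figure D2:**
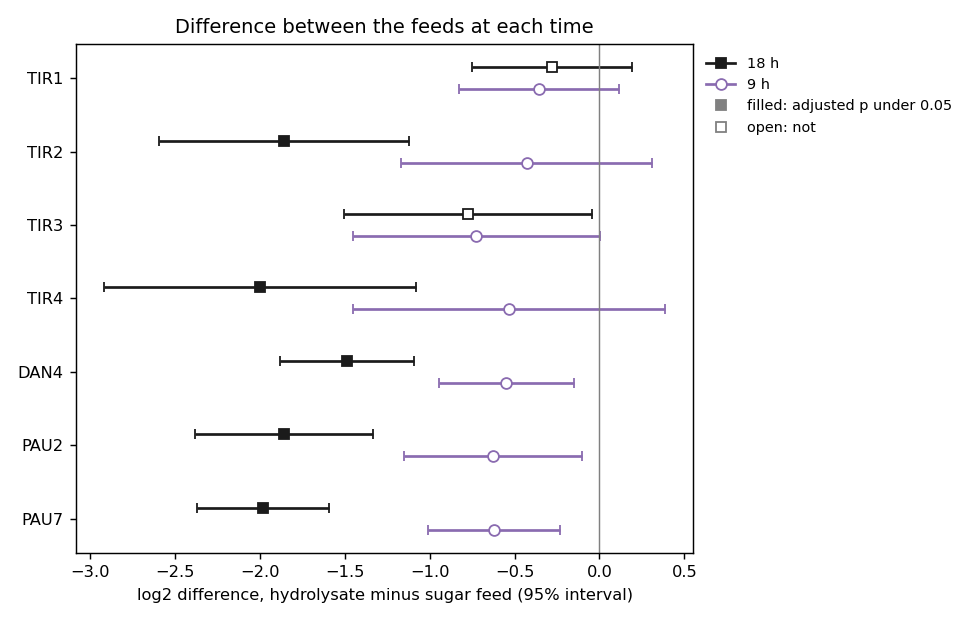
Log2 difference of the hydrolysate minus the sugar feed for the 7 members above background, at 18 h (squares) and 9 h (circles), with 95% intervals from the fit; filled symbols had an adjusted p under 0.05. At 18 h TIR2, TIR4, DAN4, PAU2 and PAU7 lie between -1.49 and -1.998, and at 9 h all 7 lie between -0.36 and -0.72 with none filled.

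Levels during each feed were then compared with the start, where the scale of the arrays matters. The spike-ins, labelled RNAs added before hybridization, averaged 11.87 on the start arrays and 10.64 to 10.93 in the other groups. Because they join after RNA is extracted and labelled, they cannot report RNA per cell. Centring each array on them moved the median of all genes by 0.93 to 1.22 in the 4 comparisons with the start, and by -0.23 in the feed difference at 18 h, where each of the 7 members kept its sign.

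In the sugar feed several members were called above the start, though at 9 h their share was close to that of all genes. At 9 h TIR3 was 2.72-fold above the start (log2 difference 1.45, SE 0.32, adjusted p = 0.00379), PAU7 2.12-fold (1.09, SE 0.17, adjusted p = 0.000571) and DAN4 2.06-fold (1.04, SE 0.17, adjusted p = 0.000803). These were 3 of 8 members, all higher, where 66.2% of all genes were called, 33.9% higher and 32.2% lower. At 18 h TIR4 was 6.4-fold above the start (2.68, SE 0.40, adjusted p = 0.000497), PAU7 5.34-fold (2.42, SE 0.17, adjusted p = 1.96e-05), DAN4 3.41-fold (1.77, SE 0.17, adjusted p = 6.69e-05) and PAU2 2.6-fold (1.38, SE 0.23, adjusted p = 0.000867). TIR1 was 1.5-fold lower (-0.58, SE 0.21, adjusted p = 0.0328), which became 0.58 with spike-in centring, below the shift of all genes by 1.16. So 4 members were called higher and 1 lower, where 36.8% and 29.7% of all genes were, 66.5% together. For TIR1 the call was lost without start replicate 2 (-0.28, adjusted p = 0.197), without either sugar 18 h array (-0.55 and -0.62, adjusted p up to 0.126) and, at the same difference, without either sugar 9 h array (adjusted p = 0.0506).

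With hydrolysate as many members were called lower as higher at 9 h, and at 18 h the called members were all lower, but this depended on the scale. At 9 h PAU2 was at 8.45 and 9.18, against 9.89 and 9.69 at the start (-0.97, SE 0.23, adjusted p = 0.0057), and TIR1 at 7.65 and 7.68, against 7.90 and 8.51 (-0.54, SE 0.21, adjusted p = 0.0458). With spike-in centring these became 0.25 (adjusted p = 0.456) and 0.68 (adjusted p = 0.0129), below the shift of all genes by 1.22. DAN4 was higher by 0.49 (SE 0.17, adjusted p = 0.0349), which was -0.0018 when the arrays were quantile-normalized again, and PAU7 by 0.47 (SE 0.17, adjusted p = 0.04). On the spike-in scale TIR3 (1.94, adjusted p = 3.48e-05) and TIR4 (1.63, adjusted p = 0.000209) were called higher as well, and no member lower. Of all 5654 genes, 4514 were called on that scale, 95.3% of these as higher. As deposited, the 2 lower and 2 higher members compare with 29.1% and 33.6% of all genes, 62.7% together. At 18 h TIR3 was 2.63-fold below the start (-1.39, SE 0.32, adjusted p = 0.00612), TIR2 2.23-fold (-1.16, SE 0.32, adjusted p = 0.015) and TIR1 1.82-fold (-0.86, SE 0.21, adjusted p = 0.00749). All 3 calls ended with spike-in centring, which moved all genes by 0.93: TIR3 was then at -0.46 (adjusted p = 0.172), TIR2 at -0.23 (adjusted p = 0.448) and TIR1 at 0.070 (adjusted p = 0.786). On that scale TIR4 (1.61, adjusted p = 0.000296), PAU7 (1.37, adjusted p = 0.00043) and DAN4 (1.21, adjusted p = 0.000275) were called higher instead. So were most genes: 4244 of 5654 were called there, 94.9% of these as higher. As deposited, 3 members were called lower and 0 higher, where 22.2% of all genes were called lower, 33.2% higher and 55.4% either way.

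Several of these calls rested on particular arrays. At 9 h of hydrolysate feed, TIR1 was not called without start replicate 2 (-0.24, adjusted p = 0.273), either hydrolysate 9 h array (-0.52 and -0.56) or any of the 4 sugar arrays (-0.54, adjusted p up to 0.0695). DAN4 was not called without start replicate 1 (0.24, adjusted p = 0.192), either hydrolysate 9 h array (0.53 and 0.45) or any of the 4 sugar arrays (0.49, adjusted p up to 0.0573). PAU7 was not called without hydrolysate 9 h replicate 2 (0.24, adjusted p = 0.219), start replicate 2 (0.37), either hydrolysate 18 h array or any of the 4 sugar arrays (0.47, adjusted p up to 0.0644). At 18 h TIR1 lost its call without hydrolysate 18 h replicate 2 (-0.68, adjusted p = 0.0568) and TIR2 without hydrolysate 18 h replicate 1 (-1.07, adjusted p = 0.0743) or with only the arrays compared (-1.16, adjusted p = 0.0667).

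Other members were called against the start only with another scaling or when an array was left out, mostly a start array. Quantile normalization again called TIR2 lower at 9 h of hydrolysate feed (-1.19, adjusted p = 0.00904). It also called TIR1 lower at 9 h of sugar feed (-0.68, adjusted p = 0.0097). Spike-in centring called several members higher, as it did most genes. Without start replicate 2, TIR4 was higher at 9 h (1.17, adjusted p = 0.00217) and 18 h (1.44, adjusted p = 0.00132) of hydrolysate feed and at 9 h of sugar feed (1.70, adjusted p = 0.000352). The same omission put TIR3 higher at 9 h of hydrolysate feed (1.198, adjusted p = 0.00865), DAN4 at 18 h of it (0.53, adjusted p = 0.0203) and TIR2 at 18 h of sugar feed (1.31, adjusted p = 0.000351). Without start replicate 1, TIR2 was lower at 9 h of hydrolysate (-1.35, adjusted p = 0.000327) and of sugar feed (-0.92, adjusted p = 0.0016), TIR1 lower at 9 h of sugar feed (-0.49, adjusted p = 0.0437) and TIR3 lower at 18 h of it (-1.10, adjusted p = 0.0126). In TIR2, TIR3 and TIR4 start replicate 2 was above replicate 1, by the most of the 8 members. Of the hydrolysate arrays, omission of 9 h replicate 1 called TIR3 at 9 h (1.08, adjusted p = 0.0293), and omission of either 9 h replicate called PAU2 (-0.48, adjusted p = 0.0228) and PAU7 (0.44, adjusted p = 0.0202) at 18 h.

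Within each feed, the later samples were compared with the earlier. In sugar, 5 members rose: at 18 h TIR4 was 3.34-fold higher than at 9 h (1.7403, SE 0.40, adjusted p = 0.00554), PAU2 3.31-fold (1.73, SE 0.23, adjusted p = 0.00032), PAU7 2.51-fold (1.33, SE 0.17, adjusted p = 0.000268), TIR2 2-fold (1.00, SE 0.32, adjusted p = 0.0258) and DAN4 1.66-fold (0.73, SE 0.17, adjusted p = 0.00638). TIR3 fell by 2.07 on the log2 scale (SE 0.32, adjusted p = 0.000687). So 5 members were called higher and 1 lower, where 31.9% and 27% of all genes were, 58.9% together. TIR2 lost its call without any one of the 4 sugar arrays (0.94 to 1.06, adjusted p up to 0.105). In hydrolysate, TIR3 was the 1 member called: it was 4.33-fold lower at 18 h than at 9 h (-2.12, SE 0.32, adjusted p = 0.00187), where 35.2% of all genes were called, 17.1% lower and 18% higher. TIR3 thus fell in both feeds, and the difference between those falls was the -0.05 given above. TIR4, DAN4, PAU2 and PAU7 had differences of 0.27, -0.21, 0.50 and -0.03 there, none called, and PAU2 was called without hydrolysate 9 h replicate 2 (0.86, adjusted p = 0.00981). Without either start array, TIR2 was called lower in hydrolysate at 18 h than at 9 h (-0.43, adjusted p = 0.0303), and TIR1 in sugar (-0.40, adjusted p = 0.0428).

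Over the 10 arrays, which share their groups and 1 normalization, some members went together closely and others loosely. Pearson's r was 0.956 between DAN4 and PAU7, 0.918 between DAN4 and TIR4, 0.886 between TIR4 and PAU7 and 0.793 between PAU2 and PAU7. TIR1 and TIR3 correlated at 0.62 with each other and between -0.313 and 0.121 with TIR4, DAN4, PAU2 and PAU7. Of neighbours on the genome, TIR4 and TIR2 correlated at 0.688, TIR2 and AUS1 at 0.287, and DAN4 and DAN1 at 0.141, with DAN1 below background. These values describe the 10 arrays and carry no test.

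The genes whose levels followed each member most closely over the 10 arrays came from varied functions. DAN4 was closest to REC107 (r = 0.99), a meiotic recombination gene, RQC2 (0.986), a ribosome quality control gene, and MYO5 (0.984), a type I myosin. PAU7 followed AMA1 (0.99), DNF1 (0.989) and UTR1 (0.988), which encode a meiotic activator of protein breakdown, a lipid flippase and an NAD kinase. For PAU2 they were ATG23 (0.989), ETP1 (0.982) and YMR160W (0.982), and for TIR4 DSK2 (0.983), TGL4 (0.979) and RLM1 (0.978), the last a transcription factor of the cell wall integrity pathway. TIR2 was closest to PAT1 (0.982), NIS1 (0.972) and IXR1 (0.968), a regulator of hypoxic genes. TIR3 followed AGE2 (0.977), FPR3 (0.972) and SEC66 (0.969), and TIR1 followed YAP1802 (0.927), BIM1 (0.915) and CCP1 (0.896). DAN1, under background, was closest to YAR066W (0.877), AVT1 (0.851) and ALG3 (0.809).

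Other genes of the same families went with the members at 18 h and less uniformly at 9 h. Of 26 further TIR, TIP, DAN and PAU names, 12 were measured, among them TIP1, which encodes a major wall mannoprotein, PAU23 and PAU24, also known as DAN2 and DAN3, and 9 other PAU genes. At 18 h, 9 of these 12 were called lower with hydrolysate and 0 higher, where 30.8% and 31.2% of all genes were, with a median of -1.06. PAU17 was 3.61-fold lower (-1.85, SE 0.28, adjusted p = 0.000638), PAU8 2.61-fold (-1.38, SE 0.21, adjusted p = 0.000612), PAU5 2.6-fold (-1.38, SE 0.20, adjusted p = 0.000513) and TIP1 2.57-fold (-1.36, SE 0.26, adjusted p = 0.00209). All 4 of the 12 with an unshared probe set (TIP1, PAU5, PAU17 and PAU23) were among the 9. At 9 h 0 of 12 were called by limma, where 9.67% of all genes were. Of these differences 6 were positive and 6 negative. By the same test 4 had an unadjusted p under 0.05, 2 in each direction, as 34.4% of all genes had in either direction. Without hydrolysate 9 h replicate 2, PAU3 (-2.18), PAU17 (-1.17), TIP1 (-0.81) and PAU23 (-0.80) were called lower, with an adjusted p of 0.0295 or less. In the change between times 13.1% of all genes were called lower. Of the 12, 6 were called, all lower, with PAU8 at -1.78 (SE 0.29, adjusted p = 0.00587) and PAU14 at -1.41 (SE 0.26, adjusted p = 0.00808) the furthest. That count fell to 3 without sugar 9 h replicate 2, where PAU5 (-0.94, adjusted p = 0.103), PAU18 (-1.31, adjusted p = 0.0522) and PAU24 (-1.17, adjusted p = 0.0504) were not called, and the highest count with an array left out was 8.

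Against the start more of these relatives were low, and how far the members differ from them was not tested. At 9 h of sugar feed 6 of 12 were called lower and 1 higher, where 32.2% and 33.9% of all genes were. PAU8, for example, was at 5.04 and 5.24 against 7.12 and 6.83 at the start (-1.84, SE 0.21, adjusted p = 8.9e-05, and -0.62 with spike-in centring). By 18 h of sugar feed PAU8 was at 7.10 and 7.17. Of the 12, 10 were called higher than at 9 h and 0 lower, where 31.9% and 27% of all genes were. PAU3, a shared probe set, had the widest replicate spread of them, with 6.79 and 9.75 at 9 h of hydrolysate feed. At 9 h and 18 h of hydrolysate feed 9 and 8 of the 12 were called below the start, where 29.1% and 22.2% of all genes were. Those called above it were 1 and 0, where 33.6% and 33.2% of all genes were. PAU24 led the lower genes (-1.86, SE 0.18, adjusted p = 4.83e-05, at 9 h and -1.63, SE 0.18, adjusted p = 0.000184, at 18 h, or -0.64 and -0.69 with spike-in centring). On the spike-in scale the medians of the 12 against the start turned positive, at 0.11 for 9 h of hydrolysate feed and 0.33 for 9 h of sugar feed, and stayed negative at -0.10 for 18 h of hydrolysate feed.

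The list of regulators, which also holds regulators of respiratory, sterol uptake and fatty acid genes, was measured in full, 13 of 13. At 18 h, 30.8% of all genes were called lower with hydrolysate and 31.2% higher, 61.9% together. Of the regulators, 6 (46.2%) were lower and 2 (15.4%) higher. Those lower were the corepressor genes TUP1 (-1.73, SE 0.25, adjusted p = 0.000491) and CYC8 (-0.73, SE 0.23, adjusted p = 0.0201), the hypoxic regulator IXR1 (-1.77, SE 0.27, adjusted p = 0.000678), the heme-responsive activator HAP1 (-1.51, SE 0.27, adjusted p = 0.00145), the sterol uptake regulator SUT1 (-1.34, SE 0.19, adjusted p = 0.000448) and SPT23 (-0.85, SE 0.20, adjusted p = 0.0062), an activator of the fatty acid desaturase gene. HAP4, the activator subunit of the respiratory Hap complex, was 7.24-fold higher (2.86, SE 0.25, adjusted p = 9.89e-05) and SUT2 4.46-fold (2.16, SE 0.36, adjusted p = 0.001). The repressors ROX1 and MOT3 had differences of -0.21 and -0.49 and the sterol-responsive activators UPC2 and ECM22 of 0.37 and -0.03, and with MGA2 at -0.54 none of these 5 was called. CYC8 lost its call without either hydrolysate 18 h array (-0.72 and -0.75) or sugar 18 h replicate 1 (-0.58, adjusted p = 0.127), and MGA2 was called without hydrolysate 18 h replicate 2 (-0.99, adjusted p = 0.0107). With spike-in centring MOT3 (-0.71, adjusted p = 0.0203) and MGA2 (-0.77, adjusted p = 0.0479) were called too.

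At 9 h HAP4 was the 1 regulator called, with 12.75 and 12.16 in hydrolysate against 11.41 and 11.08 in sugar (1.21, SE 0.25, adjusted p = 0.0281). That call was lost without hydrolysate 9 h replicate 1 (0.92, adjusted p = 0.149), either sugar 9 h array (1.37 and 1.05) or either sugar 18 h array (1.21, adjusted p = 0.0571). The differences not called were -0.75 for TUP1, -0.64 for CYC8, -0.50 for MOT3, -0.45 for SUT1, -0.44 for IXR1, -0.30 for ECM22, -0.05 for HAP1, 0.04 for UPC2, 0.05 for ROX1, 0.25 for SUT2, 0.41 for SPT23 and 0.70 for MGA2. Of these, TUP1 (-0.75, adjusted p = 0.023) and CYC8 (-0.64, adjusted p = 0.0367) were called without either start array.

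Among 32 other cell wall mannoprotein genes, 22 were called lower with hydrolysate at 18 h and 1 higher (median -1.55), where 30.8% and 31.2% of all genes were. PIR1 (-3.20, SE 0.33, adjusted p = 0.00015), CWP1 (-3.10, SE 0.47, adjusted p = 0.000649), SRL1 (-2.62, SE 0.30, adjusted p = 0.000206) and FLO11 (-2.32, SE 0.27, adjusted p = 0.000241) differed most. CWP1, the wall gene of aerated cells, read 8.78 and 9.26 in hydrolysate against 11.71 and 12.54 in sugar, and its partner CWP2, named for its role and outside the naming rule, was 1.81-fold lower (-0.85, SE 0.13, adjusted p = 0.000737). At 9 h 1 of the 32, CWP1, was lower (-2.15, SE 0.47, adjusted p = 0.0317), and 0 were higher. That call was lost without hydrolysate 9 h replicate 1 (-1.52, adjusted p = 0.164), either sugar 9 h array (-2.09 and -2.21) or either sugar 18 h array (-2.15, adjusted p = 0.0537).

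A list of genes taken as hypoxic outside these families also holds genes known mainly for other roles, such as HXK1. It was mixed at 18 h, with 9 of 22 called lower with hydrolysate, 5 higher and a median of -0.22. Of all genes, 30.8% were called lower and 31.2% higher. HXK1 (-2.34, adjusted p = 0.000112), a hexokinase, SRO77 (-1.71, adjusted p = 0.000152), which acts in secretion, HMG2 (-1.66, adjusted p = 0.000393), of sterol synthesis, and FET4 (-1.50, adjusted p = 0.00294), a low-affinity iron transporter, were the largest by limma. Of 18 aerobic and heme-dependent genes 5 were higher and 3 lower, and with spike-in centring 2 and 6. The list was led by CYC1, encoding the main cytochrome c, at 12.2-fold higher (3.60, SE 0.27, adjusted p = 5.18e-05). Of the sterol uptake and synthesis genes, 14 of 28 were higher and 4 lower, led by ERG4, 13.8-fold higher (3.78, SE 0.20, adjusted p = 1.82e-05), PDR16 9.73-fold (3.28, SE 0.18, adjusted p = 1.82e-05) and ERG3 9.46-fold (3.24, SE 0.27, adjusted p = 8.47e-05). At 9 h these 3 lists had 1 higher and 2 lower of 22, 1 higher and 0 lower of 18, and 1 higher and 1 lower of 28. FET4 was among them, at -2.71 (SE 0.31, adjusted p = 0.00351), and was the 1 of these 6 calls that held without each of the 10 arrays. The other 5, CYC7, FRD1, ARE2, PDR16 and ERG24, were each lost without hydrolysate 9 h replicate 1 or either sugar 9 h array (adjusted p between 0.0647 and 0.228), and CYC7 without 9 of the 10 arrays.

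**Figure D3:**
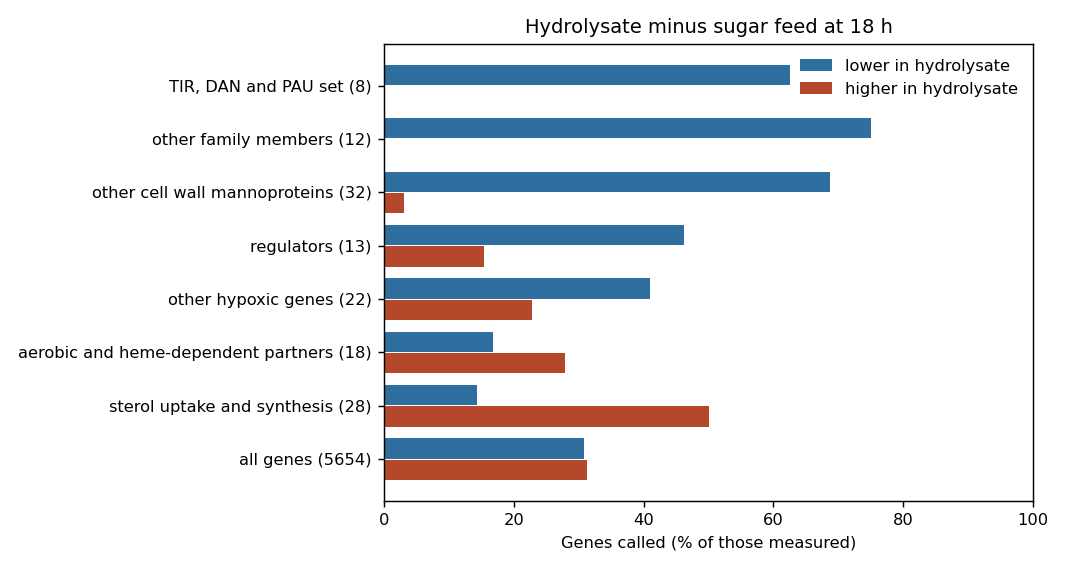
Percent of measured genes called lower (blue) and higher (red) with hydrolysate than with sugar at 18 h, for the TIR, DAN and PAU set, 6 other gene lists and all genes, with the number measured in brackets. The set has 62.5% lower and none higher, the other family members 75% lower, and all genes 30.8% lower and 31.2% higher.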

How the data were processed

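The log2 values, as deposited, are RMA intensities; for their making the submitters' processing notes list affy 1.74.0, limma 3.52.4 and R 4.2.1, and no source used here names the array type. For both feed comparisons the authors' deposited table gives, per the file headers, log2 differences, t scores, p-values, globally adjusted p-values and call scores, with no threshold stated. It heads the later time 17 h, which is 18 h in the labels; its log2 differences lay within 9.3e-14 of those from the arrays. A set of 10 columns of per-array values in it stayed unused.

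Of 5811 S. cerevisiae probe sets 108 had no gene name, and the rest gave 5654 genes, by the probe set of highest mean for the 47 genes with several; 5643 genes, and 8 of 8 members, matched RefSeq's R64 table. Comparisons were fitted in R 4.3.3 with limma 3.58.1 (lmFit, eBayes; 5 residual and 3.49 prior degrees of freedom), with Benjamini-Hochberg adjustment over all genes in each of 9 comparisons and calls under 0.05. The script was tested on simulated data. With 2 arrays in a group their number limits the precision, and p-values measure the spread between biological replicates as labelled, with no batch given.

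The members, the 6 gene lists and the rules were chosen with earlier results of these data known. All members were named, as were the regulators in the feed comparisons, up to 4 called genes of each list by size of difference, and the 3 genes most correlated with each member. Promoter motifs and protein sequences were not analysed here. Alternatives were another prior, removal of dim genes, only the arrays compared, fixed and random blocks, all or averaged probe sets, 3 other scalings, a 2-fold minimum, each array left out, and the authors' calls.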

Additional observations from a re-analysis of the deposited data

Results flagged for a closer look

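For 4 members the difference between the feeds changed between the sampling times, by the limma test of the change itself. The change was -1.36 for PAU7 (feed difference -1.98 at 18 h and -0.62 at 9 h), -1.23 for PAU2 (-1.86 and -0.63), -0.94 for DAN4 (-1.49 and -0.55) and -1.43 for TIR2 (-1.86 and -0.43). All 4 were called at 18 h and none at 9 h. Of all genes, 27.4% were called for the change, 13.1% as lower. Among these 4 members, only the call of PAU7 held without each of the 10 arrays. The PAU2 and PAU7 probe sets can be shared by near-identical copies.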

How the results depend on the processing

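The 5 members called at 18 h between the feeds were called under each alternative run here, and the count was 5 to 6 with each array left out. Of the authors' deposited calls, from a test with a t score of 0 for small differences, there was 1. Members called at 9 h between the feeds were 0, with 1 under median centring (PAU7) and 0 to 2 with an array left out. The change of the feed difference had 4, and 1 to 5 with an array left out. Against the start, 9 h of hydrolysate feed had 4, with 2 under the trended prior, the replicate block or median centring, 1 with only the arrays compared, 0 with a 2-fold minimum and 1 to 4 with an array left out. At 18 h of hydrolysate feed there were 3, and 2 to 5 with an array left out. Spike-in centring gave 4, none of them among these 3: TIR4, DAN4, PAU7 and DAN1, the last without a level above background. At 9 h of sugar feed there were 3, with 5 under quantile normalization again, 8 with spike-in centring (both counting DAN1, which has no level above background) and 3 to 5 with an array left out. At 18 h of sugar feed there were 5 (4 to 6 with an array left out). Spike-in centring there turned TIR1 to called higher (0.58, adjusted p = 0.0305) and added TIR2 as higher (1.86, adjusted p = 1.96e-05). On that scale 4485 of 5654 genes were called, 92.2% of these as higher. From 9 h to 18 h there were 1 in hydrolysate (1 to 2) and 6 in sugar (5 to 7). The replicate block lost TIR2 in the change (adjusted p = 0.0539), as did median centring (0.0576), and added TIR3 at 18 h (0.0414), as did 3 other alternatives given above; TIR4 in the change was added by 2. Deviations of arrays with the same number correlated at -0.204 to 0.13 between groups. The labels do not say whether equal numbers mark the same culture, and these correlations cannot decide it. The 8 members called at 9 h of sugar feed with spike-in centring compare with 4376 of 5654 genes, 94% of these called higher. The 5 under quantile normalization compare with 3658 genes. The 4 at 18 h of hydrolysate feed with spike-in centring compare with 4244 genes, 94.9% of these called higher. Over all genes, the 547 calls between the feeds at 9 h were 23 with only the arrays compared, 226 with spike-in centring and 337 with the replicate block; the 1548 of the change were 978 with spike-in centring, and the 1989 from 9 h to 18 h of hydrolysate were 1214 with only the arrays compared and 1122 and 1164 without hydrolysate 18 h replicate 1 or 2.

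Single values also changed sign. Quantile normalization gave the change of TIR1 as -0.11 and DAN4 against the start as -0.0018 at 9 h and -0.094 at 18 h of hydrolysate feed. Spike-in centring gave the change of TIR1 as -0.15, and TIR4 from 9 h to 18 h of hydrolysate feed as -0.019. Against the start it gave TIR1 as 0.68 and 0.070 at 9 h and 18 h of hydrolysate and 1.03 and 0.58 of sugar, TIR2 as 0.49 at 9 h of hydrolysate and 0.91 of sugar, PAU2 as 0.25, 0.45 and 0.87 at 9 h and 18 h of hydrolysate and 9 h of sugar, and TIR3 as 0.54 at 18 h of sugar. With an array left out, the change ranged from -0.10 to 0.26 for TIR1 and from -0.41 to 0.31 for TIR3, and PAU7 from 9 h to 18 h of hydrolysate from -0.26 to 0.20. Depending on which start array was left out, TIR4 against the start lay between -0.35 and 1.17 at 9 h and -0.078 and 1.44 at 18 h of hydrolysate. At 9 h of sugar feed TIR1 lay between -0.49 and 0.12, and TIR2 between -0.92 and 0.31. The cause was not tested. Spike-in centring put the share of all called genes that were higher at 37.6% between the feeds at 18 h (50.3% as deposited), 32.2% for the change (52.3%), 92.2% to 95.3% against the start (51.3% to 59.9%) and 16.3% from 9 h to 18 h of hydrolysate (51.3%). Signal over background limits DAN1, which has levels but no fold.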
